A study of Mus musculus with 14 samples.

Results

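The wild type lungs of this mouse series are 4 of its 14 samples, chosen because their titles give the genotype as wild type, with the numbers 1, 3, 4 and 5. Each is total RNA of whole lung from C57BL/6 mice aged 20 weeks, hybridised to 1 Affymetrix expression array, and the labels name no treatment and no sex. The other samples are 5 lungs of CD151KO mice and 5 of CD9KO mice, of the same strain and age, which lack the tetraspanins CD151 and CD9. Their levels were not compared with wild type here. They served to see whether genes that varied between wild type samples also varied within another group, and the ranges of a few genes are given for that purpose. The study's title concerns CD151, the lung epithelium and fibrosis, so the wild type lungs are the baseline on which its comparisons stand. Nothing in the labels ties the 4 samples to separate animals, so their spread may be partly technical.

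Gas exchange takes place in alveoli, where flat alveolar type 1 cells lie against capillary endothelium and cuboidal alveolar type 2 cells make surfactant, the film of lipid and protein that keeps the air spaces open. The airways are lined by ciliated cells, which move mucus, and by secretory club cells, which secrete uteroglobin and metabolise inhaled chemicals. Fibroblasts, smooth muscle, macrophages, lymphocytes and blood fill the rest of the organ, so a whole-lung array reads the sum of all these cells. In such a sum, fewer cells of a type and less RNA per cell cannot be told apart.

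The deposited values are normalized signals on a linear scale for 45101 probe sets, the sets of short probes that each read a transcript. A gene was taken from its probe set with the highest mean, which gave 18193 named genes, and values below are signals on arrays 1, 3, 4 and 5 in that order, or means ± SD over the 4 arrays (n = 4). Probe sets bind with different strength, so a high rank of a gene is a rank of signal and not of transcript copies. The array medians were 84.5, 85.2, 86.2 and 85.3. The spread of a gene is the SD of log2(signal + 16), and a gene is called variable where its highest array was at least 1.5 times its lowest on the signal + 16 scale. Both were described for the 12969 genes (71.3% of 18193) with a mean signal of at least 53.8, which is the 40th percentile over probe sets once controls are left out.

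Array 1 stood apart from the other 3. The correlation of its log2 signals with theirs was 0.994 to 0.995, against 0.997 to 0.998 among arrays 3, 4 and 5, a description over 45037 probe sets that share each array's RNA and labelling. On the first principal component, which held 69.9% of the variance, array 1 scored -18.2 and the others 1.92, 8.14 and 8.16. It was the highest or the lowest array for 9638 of the 12969 genes (74.3%). The 3 control probe sets for 18S ribosomal RNA were lowest on array 1 and highest on array 5, for example 1049, 1507, 1434 and 1907 at the 3′ end. The ratio of 3′ to 5′ control signal, a sign of RNA integrity, was 0.836 to 0.863 for Gapdh and 1.37 to 1.44 for Actb. Array 1 had the lowest Gapdh ratio and lay within the range of the other arrays for Actb. What these differences add to the spread of other genes was not tested, and counts that rest on array 1 are given with and without it.

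The highest signals belonged to secretory products of the lung epithelium. Scgb1a1, which encodes uteroglobin, the main secreted protein of club cells, ranked 1 with 28414, 29071, 29192 and 29192. Sftpc, the surfactant protein made by alveolar type 2 cells, ranked 2 with 28497, 28787, 28765 and 28576. Ager, the receptor that marks alveolar type 1 cells, ranked 7 with 22667, 22527, 22344 and 22961. The 3 genes that were set to mark the tissue thus lay among the 7 highest of 18193, and each ranged by 1.03-fold or less. Arrays 4 and 5 carry exactly the same value for Scgb1a1, the highest value in the 4 wild type columns, so differences between samples may be compressed at this end of the scale.

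Of the 20 genes with the highest mean signal, 9 stand on the alveolar or airway lists described below: Scgb1a1, Sftpc, Cbr2, Lyz2, Ager, Cyp2f2, Sftpa1, Scgb3a2 and Aldh1a1. Cbr2, a carbonyl reductase abundant in mouse lung, had 24078 ± 428, Cyp2f2, the club cell cytochrome P450 that activates naphthalene, 19799 ± 312, and Sftpa1, a surfactant collectin, 19756 ± 683. Lyz1 and Lyz2, the lysozymes of secretory and myeloid cells, had 25584 ± 350 and 23770 ± 826. They are close paralogs, so either probe set may read both transcripts. The remaining genes of the 20 were Tpt1, Tmsb4x, Malat1, Fth1, Rps29, Eef1a1, Actb, Mgp, Rpl37a and Inmt. Most of these are active in nearly all cells, whereas Mgp, an inhibitor of calcification, is made by vascular and mesenchymal cells, and Inmt, an indole methyltransferase, by lung fibroblasts. The 10 highest genes together held 2.16% to 2.25% of the summed signal of all named genes, and the 1000 highest 44.6% to 45.1%. The median gene had a signal of 180, and 2638 genes had means above 1000.

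Genes of alveolar type 2 cells ranked high as a group. Of 19 measured, 19 were above the level filter (background 71.3%) and 17 lay at or above the 90th percentile of all genes (background 10%), with a median signal of 5982. The surfactant proteins Sftpb and Sftpd had 8476 ± 448 and 11518 ± 684. Slc34a2, the phosphate transporter of the apical membrane, had 11818 ± 429, and Abca3, which loads surfactant lipid into lamellar bodies, 2655 ± 273. Scd1, the desaturase that makes monounsaturated fatty acids, had 9938 ± 1303, and Cxcl15, the chemokine lungkine, 13377 ± 1268. The lowest member was S100g, a calcium-binding protein, at 1115 ± 96.5. The number of variable genes in the list was 0 of 19, near the background of 3.21%, and the widest range was that of Etv5, a transcription factor downstream of FGF signalling, with 2605, 2061, 1806 and 1867.

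Alveolar type 1 genes gave a similar picture of level, with 19 of 19 above the filter, 17 at or above the 90th percentile and a median signal of 3877. Beside Ager, Hopx, a homeodomain cofactor, had 15829 ± 298, the caveola protein Cav1 12656 ± 153, and the membrane protein Emp2 12420 ± 534. Aqp5, the apical water channel, had 4662 ± 411 and Pdpn, podoplanin, 3877 ± 369. None of the 19 was variable, and the median SD of log2 signal was 0.109 (0.0770 without array 1). The corresponding value for all genes above the filter was 0.0862, or 0.0566 without array 1.

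The club and secretory list spread over a wider range of signal, from 51.5 for Upk3a to 28967 for Scgb1a1. Of 18 genes, 17 were above the filter and 9 at or above the 90th percentile. Scgb3a2, another secretoglobin, had 17644 ± 371, the antimicrobial protein Bpifa1 8341 ± 1075 and Hp, haptoglobin, 10178 ± 671. Muc5b, the main gel-forming mucin of the healthy mouse airway, had 556 ± 47.5. Scgb3a1 was lower on array 5, with 8560, 7630, 8172 and 6046, which stays within the 1.5-fold limit. The single variable gene was Reg3g, an antibacterial lectin, described with array 4 below.

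Ciliated cell genes were all measured above the filter, 20 of 20, at a median signal of 491, and 5 lay at or above the 90th percentile. Tppp3, a tubulin-binding protein, had 4951 ± 336 and Dynlrb2, a dynein light chain, 2935 ± 186. Foxj1, the transcription factor that switches on the motile cilium program, had 508 ± 65.2, and the axonemal dynein heavy chains Dnah5, Dnah9 and Dnah11 lay between 192 and 306. Basal, goblet and neuroendocrine genes were at the other end, with 7 of 13 above the filter (background 71.3%) and none at or above the 90th percentile. Krt5, the basal cell keratin, had 79.7 ± 7.96, Muc5ac, the goblet cell mucin, 90.6 ± 13.3, and Chga, chromogranin of neuroendocrine cells, 15 ± 1.22.

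**Figure D1:**
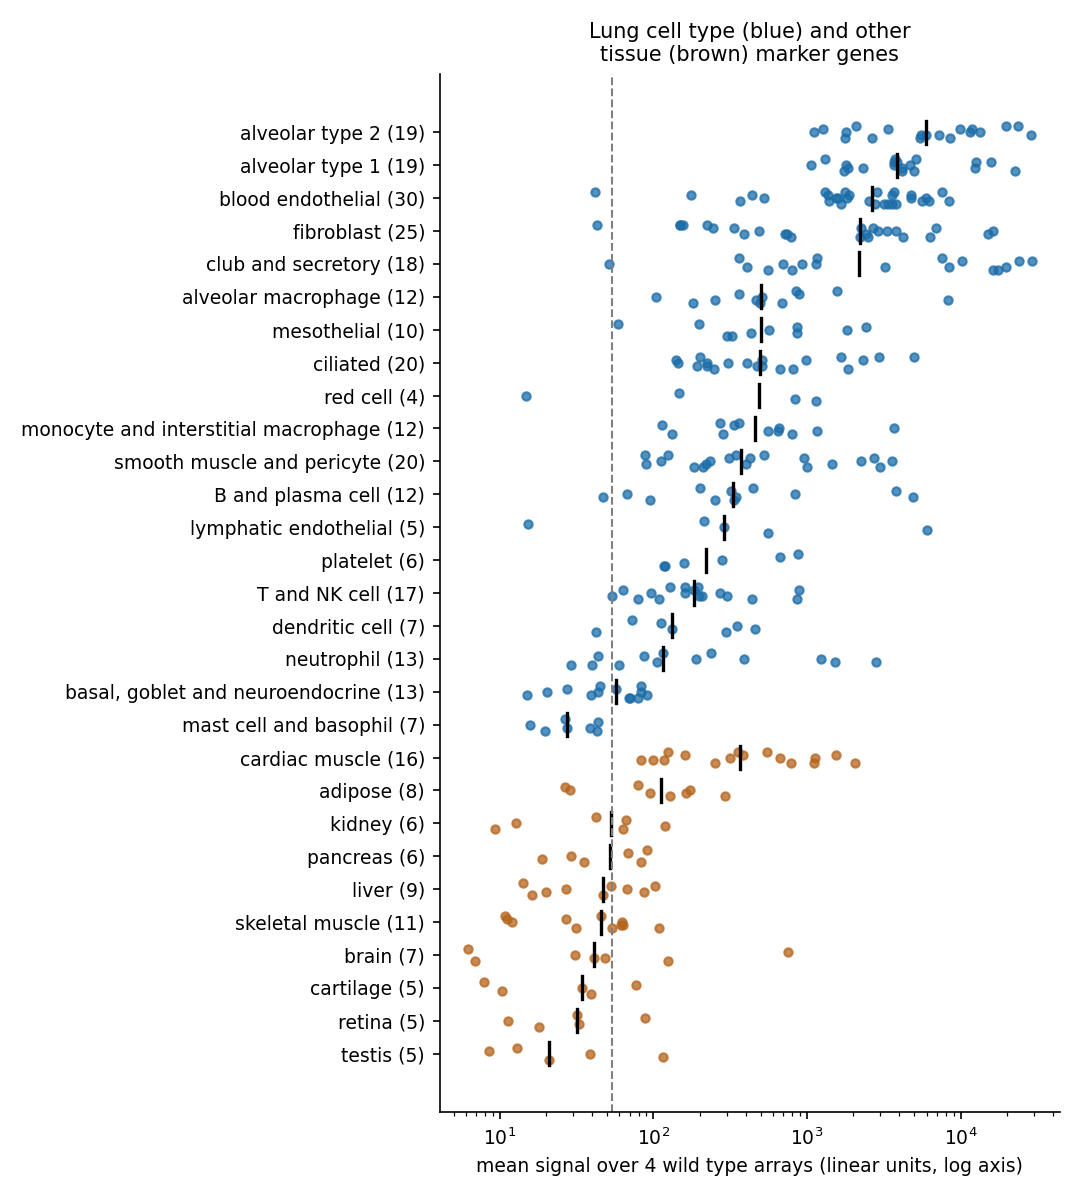
Mean signal over the 4 wild type arrays (log axis, linear units) of each measured gene of the lists for lung cell types (blue) and other tissues (brown), for lists with at least 4 measured genes, whose number is in brackets. Black bars are list medians and the dashed line is the level filter of 53.8. Alveolar type 2 and type 1 genes lie highest, with medians of 5982 and 3877, and of the brown lists cardiac muscle has the highest median, 368.

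Endothelial genes were nearly as high as alveolar ones. Of 30 genes for blood endothelium, 29 were above the filter and 22 at or above the 90th percentile, with a median of 2645. Hpgd, which degrades prostaglandins, had 8402 ± 494, Calcrl, a receptor subunit for adrenomedullin, 7565 ± 572, and its partner Ramp2 5961 ± 450. Cldn5, the endothelial tight junction claudin, had 4761 ± 205. Car4 and Ednrb, markers of the capillary aerocyte, had 2765 ± 175 and 1303 ± 71.1, and Gpihbp1, the lipase anchor of capillaries, 3817 ± 115. Aplnr, the apelin receptor, was the variable gene of the list and was high on array 1, with 2295, 1333, 1179 and 1376. Without that array its range was 1.16-fold. Among lymphatic genes Lyve1, a hyaluronan receptor that some macrophages also carry, had 6036 ± 761, while Prox1, which specifies lymphatic endothelium, was at 15.4 ± 3.68 and below the filter.

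Of 25 fibroblast genes, 24 passed the filter and 13 were at or above the 90th percentile. Beside Inmt (16340 ± 407), Gsn, the actin-severing protein gelsolin, had 15177 ± 274 and Limch1 6899 ± 321. Tcf21, a transcription factor of lipofibroblasts, had 2911 ± 257 and Pdgfra, the receptor that marks alveolar fibroblasts, 2676 ± 131. The collagen genes Col1a2 and Col3a1 had 4222 ± 468 and 2434 ± 314, and the probe set of Col1a1 155 ± 22.6. Both chains form type I collagen, and the difference between their probe sets is not a ratio of transcripts. Mfap4, a microfibril-associated protein, was variable with and without array 1, with 2846, 1877, 3031 and 2215. All 20 smooth muscle and pericyte genes passed the filter with no variable member, among them Acta2 at 2977 ± 167, Tagln at 2720 ± 175 and Postn at 3552 ± 269. The 10 mesothelial genes passed too, Krt19 with 2408 ± 315 and Msln, mesothelin, with 264, 240, 380 and 324, a range of 1.55-fold.

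Blood and immune cell lists were lower. Alveolar macrophage genes passed the filter in 12 of 12 cases at a median of 502, led by Chil3, a chitinase-like protein, at 8321 ± 776, and Plet1 at 1558 ± 209. Monocyte and interstitial macrophage genes passed in 12 of 12, with Csf1r, the receptor of colony stimulating factor 1, at 3661 ± 253. Of T and NK cell genes 16 of 17 passed, with Gzma, a granzyme, highest at 885 ± 139 and Cd3e, a subunit of the T cell receptor complex, at 184 ± 1.88. Platelet genes passed in 6 of 6, Ppbp at 880 ± 135 and Pf4 at 664 ± 44.8, and all 6 were highest on array 1 (43.7% of all genes above the filter were). Mast cell and basophil genes were below the filter in 7 of 7, between 15.7 and 43.4. The red cell genes Alas2, which starts heme synthesis, and Bpgm had 1151 ± 89.9 and 829 ± 56.6, and the probe set named only for Hba-a1 was at 14.8 ± 1.43. Other globin probe sets carry several gene names and were not used. Over the 19 cell type lists, 245 of 269 genes (91.1%) were above the filter and 98 (36.4%) at or above the 90th percentile, against 71.3% and 10% of all genes.

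Markers of tissues outside the lung differed from tissue to tissue. For liver, pancreas, brain, testis, retina and kidney 13 of 38 genes (34.2%) passed the filter (background 71.3%), none reached the 90th percentile, and the median signal was 36.9. Among these genes Mbp, myelin basic protein of nerve sheaths, stood highest with 825, 752, 724 and 685. Alb, the liver's albumin, was near the filter at 59.9, 78.5, 63.1 and 147, higher on array 5. Heart muscle genes passed in 16 of 16 cases with a median of 368. Actc1, cardiac actin, had 1968, 1911, 2415 and 1960, Myl7, the atrial light chain, 1533 ± 62.5, and Myh6, the heavy chain alpha, 913, 1172, 1324 and 1035. Array 4 was the highest for 12 of these 16 genes (background 20.8%), although the list held no variable member. Mouse pulmonary veins are sheathed in cardiac muscle, and the source of this signal was not tested. Adipose genes passed in 6 of 8 cases, near the background, with Adipoq at 293 ± 39.2, and skeletal muscle genes in 4 of 11, with Myl1 highest at 108 ± 14.9.

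The transcription factors of lung lineages covered most of the signal scale. Foxf1, required for lung mesenchyme and capillaries, had 4043 ± 163, Foxa1 1736 ± 43.7, Foxp1 1705 ± 171 and Tbx4 1150 ± 41.0. Nkx2-1, which specifies lung epithelium, had 102, 99, 94.9 and 93.5 on its single named probe set, at percentile 39.1. Sftpc and Scgb1a1, which it is known to activate, were at the top of the scale. Elf5 and Hoxa5 were the variable members of the 21 above the filter, both highest on array 1, and neither was variable without it.

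Genes for moving ions and water had high ranks. Atp1b1, the beta subunit of the sodium pump, had 7118 ± 348, Aqp1, the water channel of endothelium, 6705 ± 356, and the sodium channel subunits Scnn1a, Scnn1b and Scnn1g 745 ± 38.5, 598 ± 29.9 and 1733 ± 185. Cftr, the chloride channel mutated in cystic fibrosis, had 82.6, 118, 133 and 113. Of 18 genes for the metabolism of foreign compounds 15 were at or above the 90th percentile, and 0 were variable. Cyp4b1 had 10092 ± 327, the flavin monooxygenase Fmo2 8671 ± 957 and the glutathione transferase Gstp1 7067 ± 340, whereas Cyp1a1, which is induced by aryl hydrocarbons, had 85.9 ± 11.3. Of 27 matrix and basement membrane genes 26 passed the filter. Sparc, a matricellular glycoprotein, had 7811 ± 493, the basement membrane collagens Col4a1 and Col4a2 3984 ± 185 and 2781 ± 41.3, and Col4a3, a chain of the alveolar basement membrane, 1240 ± 42.3. Of the antigen presentation genes, H2-Aa had 8815 ± 412 and the invariant chain Cd74 4686 ± 237. Of 16 genes of cell division 14 passed the filter, at a median signal of 128 for the list. Mki67 had 157 ± 20.3, Top2a 131 ± 16, the replication helicase subunit Mcm2 434 ± 45.6, and Pcna, a clamp for DNA polymerases that also serves repair, 3404 ± 134.

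Cd151 and Cd9, the genes deleted in the other groups, lay at percentiles 98.6 and 99.3 in wild type lung. Cd151 had 5832, 5115, 4991 and 5380, and Cd9 had 8105, 8116, 7998 and 8163. Their ranges were 1.17-fold and 1.02-fold. The Y-linked genes Eif2s3y, Kdm5d and Uty were above the filter on every array, with ranges of 582 to 743, 254 to 323 and 157 to 253. Xist, the RNA that coats an inactive X chromosome, lay between 59.6 and 83.6. Uty was lowest on array 1 and was variable, with 157, 241, 253 and 219, and its range was 1.15-fold without that array.

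The spread between arrays was smaller at high than at low levels. With the genes above the filter in 10 bins of level, the median SD of log2 signal was 0.0942 in the lowest bin and 0.0699 in the highest. It was 0.0447 over the 100 highest genes and 0.0330 over the 20 highest. The median coefficient of variation over all 12969 genes was 6.42%. The cytosolic ribosomal proteins, 22 measured, had a median SD of 0.0497 and no variable member, and the 12 genes often used as references for quantitative PCR had a median SD of 0.0324. Hprt had 1860, 1813, 1793 and 1804, Tbp 370, 360, 359 and 373, and Eef1a1 18538, 18475, 18613 and 18842. Gusb and Polr2a, also on this list, ranged more widely, by 1.22-fold and 1.21-fold, with SDs of 0.127 and 0.124.

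The genes with the smallest spread among those above the 60th percentile of probe sets (a signal of 139) were not in the usual reference set. Tprkb, part of a complex that modifies transfer RNA, had 357, 358, 357 and 357, and Kifc3, a kinesin, 540, 538, 539 and 537. Psmd12, a subunit of the proteasome lid, had 1074, 1084, 1080 and 1079, Gspt1, a translation release factor, 710, 712, 709 and 715, and Aplp2, a relative of the amyloid precursor, 4499, 4487, 4519 and 4470. Each of these ranged by 1.01-fold or less. Second probe sets of Tprkb (196, 176, 189 and 187) and Gspt1 (543, 632, 644 and 635) ranged more widely.

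**Figure D2:**
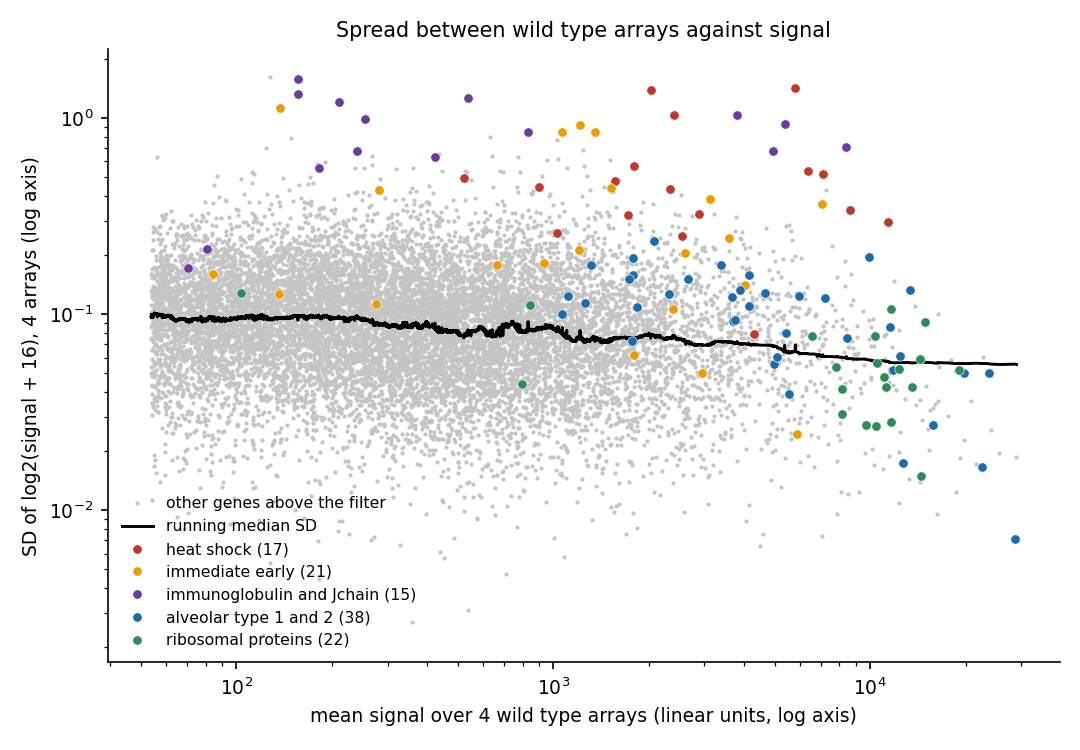
SD of log2(signal + 16) over the 4 wild type arrays against the mean signal (both axes logarithmic) for the 12969 genes above the filter, with 5 groups coloured and the running median over 501 genes of similar level as a black line. Most heat shock and immunoglobulin genes and several immediate early genes lie far above the line, whereas alveolar and ribosomal protein genes lie on both sides of it. The median ratio of a gene's SD to the line was 1.59 for alveolar type 2, 1.44 for alveolar type 1 and 0.856 for ribosomal protein genes.

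At the other end, 416 of the 12969 genes (3.21%) were variable, and 70 (0.540%) reached a 2-fold range. Array 1 was the highest in 182 and the lowest in 208 of the 416, together 93.8%, against 74.3% of all genes. Without array 1, 56 genes (0.432%) had a range of at least 1.5-fold over arrays 3, 4 and 5. All 56 are necessarily among the 416, since a range over 4 arrays cannot be smaller than over 3 of them. Of the 416 variable genes 69 (16.6%) stand on any of the lists used here, against 547 of all 12969 genes (4.22%), so most of them are on none. Heat shock genes held 14 of 17 variable members, B and plasma cell genes 8 of 11, glucocorticoid and fasting response genes 6 of 10, neutrophil genes 5 of 10, immediate early genes 8 of 21 and circadian clock genes 5 of 17, against the background of 3.21%. Alveolar type 1, alveolar type 2, ciliated, smooth muscle, ribosomal protein, oxidative phosphorylation and xenobiotic metabolism genes held 0, which for a list of that size is near the background. Without array 1 the counts were 4 of 17, 4 of 11, 0 of 10, 0 of 10, 4 of 21 and 1 of 17, against 0.432%. The lists were chosen with earlier results of these data known, so their shares may partly reflect that choice.

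Heat shock proteins are chaperones that hold and refold proteins. Their genes are switched on by heat shock factor 1, which binds repeated copies of the pentamer nGAAn in alternating orientation. All 17 measured genes of the list were lowest on array 1 (background 30.6%). Array 5 was the highest for 12 (background 18.8%) and array 4 for 4 (background 20.8%). Hspa1b, an inducible HSP70, had 1060, 4680, 8539 and 8950, a range of 8.33-fold and the widest among genes with a mean above 1000. Hspa1a, its neighbour and near-copy, had 401, 1385, 3192 and 3141, a range of 7.70-fold. Hsph1, a nucleotide exchange factor for HSP70, had 732, 2020, 3207 and 3637. Array 1 lay far below the rest for these 3 genes, array 3 was intermediate, and arrays 4 and 5 were close to each other. The ranges without array 1 were 1.91-fold, 2.29-fold and 1.79-fold.

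The upstream sequences of 4 of these genes are shown because the list is defined by a shared regulator. They are the 250 bases before the annotated start of each gene, 5′ to 3′ on the gene's strand, from RefSeq on assembly GRCm38.p6. Capitals mark matches to GAANNTTC or TTCNNGAA, a pair of adjacent inverted pentamer cores, each of which reads the same on both strands. The Hspa1b window is chr17:34959239-34959488 on the minus strand, Hsph1 chr5:149636337-149636586 on the minus strand, Hspb1 chr5:135887669-135887918 on the plus strand and Dnaja1 chr4:40722218-40722467 on the plus strand.
Hspa1b: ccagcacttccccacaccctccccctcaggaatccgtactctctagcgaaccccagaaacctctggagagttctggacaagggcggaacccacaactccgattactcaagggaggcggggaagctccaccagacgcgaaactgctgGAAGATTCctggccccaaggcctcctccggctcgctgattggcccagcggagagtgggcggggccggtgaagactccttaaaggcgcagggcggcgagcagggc
Hsph1: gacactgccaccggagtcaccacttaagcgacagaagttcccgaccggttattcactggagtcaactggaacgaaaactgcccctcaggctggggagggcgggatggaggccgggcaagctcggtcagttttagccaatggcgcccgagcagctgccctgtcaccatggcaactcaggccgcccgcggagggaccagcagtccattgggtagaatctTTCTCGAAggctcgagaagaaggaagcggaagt
Hspb1: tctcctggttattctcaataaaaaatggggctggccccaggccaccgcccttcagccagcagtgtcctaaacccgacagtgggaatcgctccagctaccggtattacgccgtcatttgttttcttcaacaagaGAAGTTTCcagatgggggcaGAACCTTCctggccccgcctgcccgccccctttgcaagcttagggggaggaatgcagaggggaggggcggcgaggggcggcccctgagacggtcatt
Dnaja1: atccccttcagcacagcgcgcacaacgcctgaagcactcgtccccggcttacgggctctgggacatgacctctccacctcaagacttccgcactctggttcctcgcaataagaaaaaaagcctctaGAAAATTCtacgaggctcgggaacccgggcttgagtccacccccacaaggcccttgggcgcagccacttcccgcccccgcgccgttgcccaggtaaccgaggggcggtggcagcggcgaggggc

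The match in Hspa1b begins 104 bases before the start, that in Hsph1 33, that in Dnaja1 124, and those in Hspb1 117 and 97. Either form occurred in 7 of the 14 heat shock genes with a window (50.0%), in 4218 of all 32851 windows (12.8%) and in 1286 of 10431 windows of genes above the filter (12.3%). The genes with a match were Hspa1a, Hspa1b, Hsph1, Dnaja1, Hspb1, Hspd1 and Hspe1. Dnajb1, Bag3, Chordc1, Ahsa1, Stip1, Hspa4l and Cacybp had none, and the windows shown are all from genes with a match. A match is a description of the letters and not a binding site. The windows of Hspa1a and Hspa1b are identical at 247 of 250 positions, so their matches are not independent. Their transcripts are so alike that each probe set may read both.

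The other members ranged less than these 3. Hspa8, the constitutive HSP70, had 8521, 10842, 13310 and 12973, and Hsp90aa1, an HSP90, 6103, 8390, 9849 and 10276. Among the cochaperones, Dnajb1 had 1496, 2215, 3025 and 2602, Dnaja1 3593, 5938, 7786 and 8112, and Chordc1 972, 1668, 2228 and 2309. Hspb1, the small heat shock protein HSP27, had 4195, 6373, 8425 and 9381. Each of these 6 genes was lowest on array 1 and had array 3 between it and arrays 4 and 5. Bag3, Hspe1 and Cryab were the 3 members inside the 1.5-fold limit, Cryab, the lens and muscle crystallin, with 3980, 4529, 4259 and 4390. Cirbp, an RNA-binding protein induced by cold, ran the other way, with 1033, 668, 516 and 350. It stands on no list and was chosen after its values were seen. Second probe sets gave the same picture for Hspa1b (981, 3308, 7171 and 7293), Hsph1 (375, 1183, 1880 and 2179) and Hsp90aa1 (2952, 4582, 5687 and 6071).

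Genes of the endoplasmic reticulum stress response ranged less. Of 15 genes of the unfolded protein response 13 were lowest on array 1 (background 30.6%) and 11 highest on array 5 (background 18.8%). The count of variable genes was 0 of 15, near the background of 3.21%. Hspa5, the chaperone BiP, had 4452, 5636, 6098 and 6523, and Atf4, the transcription factor of the integrated stress response, 3241, 3074, 3171 and 3076. For Atf4, array 1 was the highest.

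Immediate early genes are transcribed within minutes of a stimulus without new protein synthesis, and their transcripts are short-lived. Array 1 was the highest for 15 of the 21 genes above the filter (background 43.7%), and array 5 was the lowest for 15 (background 25.7%). Nr4a1, an orphan nuclear receptor, had 2599, 880, 791 and 588, and Egr1, a zinc finger factor induced by growth signals, 2160, 868, 677 and 566. Ccn1, a matricellular protein of the stretch response, had 2772, 1042, 838 and 760. On these 3 genes array 1 was more than 2-fold above every other array, and the ranges without it were 1.48-fold, 1.52-fold and 1.36-fold. Egr3 had 351, 81.4, 69.4 and 47.5, but its second probe set had 57.7, 66.4, 71.3 and 71.3 and did not share this pattern.

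The remaining members differed in pattern. Fos had 2076, 1715, 1277 and 1033, Atf3 390, 312, 231 and 191, and Dusp1, a phosphatase that switches off MAP kinases, 9116, 6920, 7128 and 4931. Ier3 was high on array 1 alone, with 4524, 2754, 2501 and 2750. Jun (3077, 2886, 2839 and 2959) and Klf4 (5820, 5953, 5937 and 5745) stayed within 1.08-fold. The list as a whole thus held members such as Nr4a1 and Egr1, with ranges of 4.33-fold and 3.74-fold, beside members that hardly differed between arrays.

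**Figure D3:**
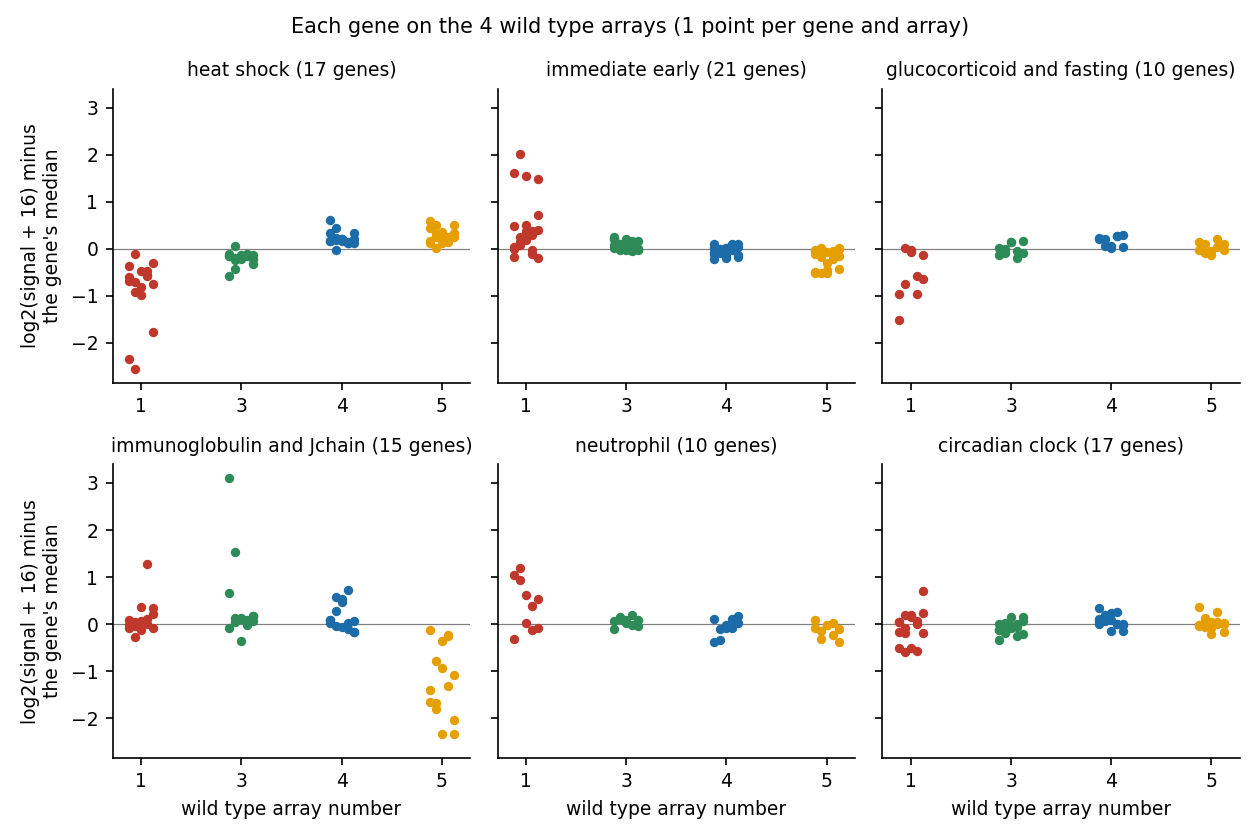
Log2(signal + 16) of each gene above the filter on wild type arrays 1, 3, 4 and 5, as the difference from that gene's median over the 4 arrays, for 6 groups of genes; each point is 1 gene on 1 array. Heat shock and glucocorticoid response genes lie lowest on array 1, immediate early and several neutrophil genes highest there, and immunoglobulin genes lowest on array 5.

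Glucocorticoid and fasting response genes, which follow the adrenal hormone and food intake, had array 1 as the lowest for 8 of 10 genes (background 30.6%). Fkbp5, a cochaperone of the glucocorticoid receptor, had 243, 653, 840 and 794. Zbtb16, a transcription factor induced by the hormone, had 679, 1166, 1618 and 1543, and Tsc22d3, the leucine zipper GILZ, 4573, 7183, 8949 and 8247. Cdkn1a, the cell cycle inhibitor p21 that p53 also induces, had 430, 864, 1000 and 841. Array 1 lay below the other 3 in each case, and the ranges of these 4 genes without it were 1.19-fold to 1.38-fold. Pdk4, which restrains glucose oxidation in fasting, had 246, 364, 458 and 388, and Angptl4, an inhibitor of lipoprotein lipase, 639, 933, 1238 and 1072. The metallothionein Mt1, also a target of the hormone, stayed at 2781, 2748, 2862 and 2606. Fam107a, which stands on no list here but is among the 20 largest spreads, followed the low pattern with 422, 968, 1367 and 1342.

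The clock genes drive daily rhythms through a feedback loop in which Clock and its partner activate the Per and Cry repressors. Cry1 had 277, 312, 510 and 518 and Per2 669, 833, 1199 and 1206, so that arrays 4 and 5 were near each other and above arrays 1 and 3. Dbp, a rhythmic output factor, ran against them with 3636, 2486, 2001 and 1997. Clock had 305, 476, 501 and 457. Nr1d2, a repressor of the loop, stayed at 5581, 5562, 5602 and 5773, and Tef, a relative of Dbp, within 1.11-fold. Over the list 5 of 17 genes were variable, and 1, Cry1, without array 1. The hours at which the lungs were taken are not given in the sources used here.

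Antibody genes showed a different array apart. Plasma cells secrete immunoglobulin, and Jchain links its polymers of IgA and IgM for transport across epithelium. Jchain had 4385, 4850, 4865 and 1109, Igha, the heavy chain of IgA, 10370, 9210, 10364 and 3710, and Ighm, that of IgM, 6267, 3817, 7068 and 2540. The immunoglobulin genes above the filter, with Jchain, number 15, and array 5 was the lowest for all 15 (background 25.7%). Of these genes 13 were variable, 12 of them also without array 1. Igkv8-30, a kappa variable segment with high signal, had 6554, 6934, 6194 and 1801, and Iglv1, a lambda segment, 814, 823, 1372 and 322.

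Variable segments did not all follow that order. Igkv6-20 was high on array 3 alone, with 39.9, 499, 47.5 and 38.3, Igkv15-103 had 92.7, 365, 144 and 24.9, and Ighv14-2 was high on array 1, with 454, 176, 183 and 150. The signals of Igkv6-20 on the other arrays were below the filter, so its mean passed only because of array 3. Variable segments share sequence, so a probe set may read several of them. A second probe set of Ighm had 3682, 6883, 3776 and 97.0, again lowest on array 5 but highest on array 3. Prg2, the major basic protein of eosinophil granules, was low on array 5 too, with 74.1, 73.9, 57.7 and 19.6, and was chosen after its values were seen.

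Genes of B cells before secretion followed array 1 instead. Ms4a1, the antigen CD20, had 732, 367, 381 and 301, Cd79b, a subunit of the B cell receptor, 528, 278, 262 and 210, Cd22 481, 302, 315 and 280, and Fcmr, the receptor for IgM, 430, 214, 189 and 179. These 4 genes were highest on array 1 and lowest on array 5, with ranges of 1.12-fold to 1.30-fold without array 1. H2-Ob and H2-Oa, class II genes characteristic of B cells, were variable as well, with 340, 244, 216 and 161 and 259, 147, 170 and 154. The 7 other class II genes measured, which further cell types also express, were not. Ccr7, the homing receptor of lymphocytes, had 278, 187, 172 and 157.

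Of 10 neutrophil genes above the filter 6 were highest on array 1, against 43.7% of all genes, and 5 were variable. S100a8 and S100a9, the calprotectin subunits, had 2588, 1319, 955 and 1185 and 2248, 1073, 766 and 873. Il1b, the cytokine interleukin 1 beta, had 394, 213, 182 and 155, and the receptor Csf3r 263, 169, 162 and 162. Array 1 exceeded each other array by more than 1.5-fold for these 4 genes, and none was variable without it. Lcn2, the iron-binding lipocalin that airway epithelium makes too, had 2730, 3068, 3266 and 2224. The granule genes Camp, Ngp and Mmp8 were below the filter, at 29.2 ± 1.46, 39.5 ± 5.22 and 43.6 ± 8.01. Ltf, another granule gene, was above it at 387 ± 56.3. Of 12 monocyte and interstitial macrophage genes 6 were highest on array 1, near the background of 43.7%. The variable ones were Cx3cr1 (154, 109, 104 and 88.1) and Plac8 (1524, 1161, 1027 and 960). The red cell genes Alas2, Bpgm and Slc4a1 were not highest on array 1, and Slc4a1, the band 3 anion exchanger, had 143, 119, 202 and 126. How far blood left in the lungs enters these differences was not tested.

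A few genes were high on array 4 and are named for that reason, not as a group. Reg3g had 476, 637, 1118 and 541, Saa3, an acute phase apolipoprotein, 165, 268, 437 and 203, Ccl20, a chemokine for dendritic cells and lymphocytes, 112, 124, 199 and 113, and Cfb, complement factor B, 185, 250, 378 and 233. Array 4 exceeded the next highest array by more than 1.5-fold on the signal + 16 scale for each of these genes except Cfb. G530011O06Rik, a noncoding transcript, had the largest SD of all genes above the filter, with 27.6, 31.3, 419 and 32.2. Its signals on the other arrays were below the filter, which is applied to the mean. Array 4 alone thus set both its passing of the filter and its large SD. Mid1, a ubiquitin ligase gene that spans the boundary of the pseudoautosomal region in C57BL/6, had 257, 58.3, 114 and 165, and its range stayed at 2.44-fold without array 1. Each of these genes other than Mid1 rested on a single named probe set.

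Second probe sets, which played no part in choosing the genes, gave a check on the variable ones. Of the 416 genes, 171 had another probe set above the filter, and 63 of these (36.8%) were variable on it too, against 163 of 5853 genes with a second probe set (2.78%). The same array was highest and the same array lowest on both probe sets in 87 of 171 (50.9%), against 1325 of 5853 (22.6%). For Fkbp5 the second set had 90.1, 161, 186 and 178, for Zbtb16 404, 911, 1353 and 1258, for Igha 8137, 7379, 8025 and 2968, and for Dbp 2927, 1845, 1366 and 1424. In these 4 genes the array that stood apart was the same on both sets, whereas Clock (285, 283, 284 and 289) and Egr3 did not repeat it.

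The variable genes were examined within the other groups, whose samples were not used to choose them. Within the 5 CD151KO lungs 213 of the 416 (51.2%) were variable, against 578 of 12969 genes (4.46%), and within the 5 CD9KO lungs 75 (18%), against 352 (2.71%). Without the CD151KO lung numbered 1, 115 of the 416 (27.6%) were variable among the 4 that remain, against 305 of 12969 genes (2.35%). For CD9KO without its number 1 the count was 64 (15.4%), against 277 (2.14%). Of the 56 genes that varied among wild type arrays 3, 4 and 5, 42 (75%) varied within CD151KO and 28 (50%) within CD9KO. These 56 included 12 immunoglobulin genes or Jchain and 4 heat shock genes.

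The lists were counted in the same sets, where the shares of all genes were 3.21% in wild type, 4.46% in CD151KO, 2.35% in CD151KO without its number 1 and 2.71% in CD9KO. Heat shock genes were variable in 14 of 17 cases in wild type, 12 in CD151KO, 2 in CD151KO without its number 1 and 4 in CD9KO. B and plasma cell genes gave 8, 10, 6 and 6 of 11 in the same order, glucocorticoid response genes 6, 8, 7 and 3 of 10, and neutrophil genes 5, 8, 7 and 2 of 10. Immediate early genes gave 8, 12, 4 and 5 of 21, and clock genes 5, 6, 2 and 2 of 17. Jchain ran from 4065 to 6430 in CD151KO and from 1782 to 4679 in CD9KO, Ighm from 2706 to 6788 and from 1774 to 5439, and Mid1 from 58.1 to 211 and from 71.1 to 265. G530011O06Rik ran from 20.4 to 41.5 in CD151KO and from 25.5 to 44.4 in CD9KO. These counts describe spread within each group, and differences in spread between the groups or between lists were not tested.

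**Figure D4:**
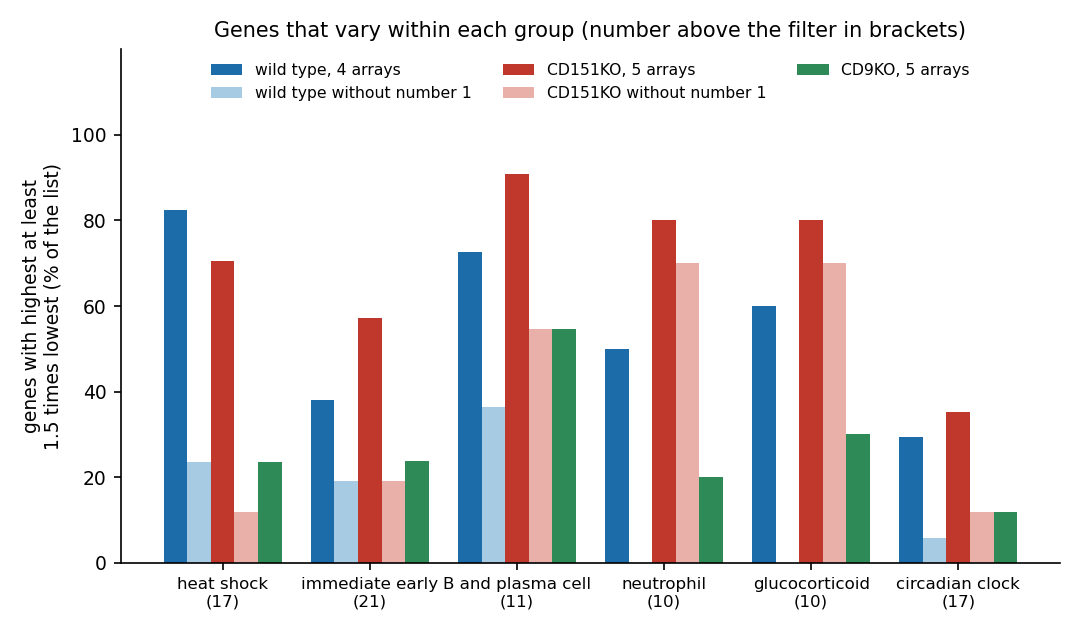
Share of the genes above the filter in 6 lists (number in brackets) whose highest array was at least 1.5 times the lowest, within wild type (4 arrays), within wild type without number 1, within CD151KO (5), within CD151KO without number 1 and within CD9KO (5). Of 17 heat shock genes, 14 pass in wild type and 4 without number 1, and 12 and 2 in CD151KO, whereas for B and plasma cell genes 4 and 6 of 11 pass without number 1.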

How the data were processed

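Total RNA of lung tissue, homogenised in QIAzol and purified on columns, was amplified and biotin-labelled from 500 ng and hybridised to Affymetrix mouse arrays, 1 per sample, per the labels' protocols. The deposited values are intensities on a linear scale, normalized by the authors. The submitters' processing notes name Affymetrix Expression Console and MAS5 without saying which step each did, so how the arrays were normalized is unknown here, and no detection calls were used.

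Of 45101 probe sets, 34958 carry 1 gene symbol in GEO's platform annotation, 932 several and 9211 none, and 34754 of the first matched the RefSeq gene table of GRCm38.p6, which updated 0 symbols. Probe sets with several symbols were not named. Levels were used as deposited, with a pseudocount of 16 added before log2 or a ratio, in Python 3.11.15 with pandas 2.3.3 and numpy 2.4.6. With 1 group there is no test, and the number of arrays, 4, limits the precision. The steps were checked on simulated data.

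Genes were named by rule: Sftpc, Scgb1a1 and Ager, the 20 highest signals, the 20 largest spreads in absolute size and for their level, the 10 smallest spreads above the 60th percentile, 5 genes to either side on each array, and up to 6 members by signal and 4 by spread in each of 50 lists. Other genes were added as examples of their list. The wild type samples, lists and rules were chosen with earlier results of these data known. Alternatives were a pseudocount of 1 or 64, quantile normalization, median centring, the mean of a gene's probe sets, no filter or a filter at the 60th percentile, a 2-fold limit, and leaving out each array.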

Additional observations from a re-analysis of the deposited data

Results flagged for a closer look

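Of the 188 genes with values in the text, 19 (10.1%) had 1 wild type array whose gap to its nearest neighbour took more of the range than Dixon's 95% critical value for 4 samples allows. Chance flags about 1 in 20 groups, and among all 12969 genes above the level filter 1062 (8.19%) were past the limit, 777 of them on array 1. Some of the 188 genes were named because 1 array lay far from the others or because their spread was large. Their share past the limit was thus partly set by that choice. The share of the range is given for each gene.

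Array 1 was apart on the high side for the immediate early genes Egr3 (0.888), Nr4a1 (0.855), Ccn1 (0.860) and Ier3 (0.875). It was also high for Fcmr of B cells (0.860), Csf3r of neutrophils (0.930), the antibody segment Ighv14-2 (0.893), the replication gene Mcm2 (0.897) and Emp2 of alveolar type 1 cells (0.836). Array 1 was apart on the low side for Scgb1a1 (0.845), Lyve1 (0.841) and Tcf21 (0.931). Scgb1a1 ranged by 1.03-fold.

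Array 5 was low for Jchain (0.872) and Igkv8-30 (0.856). Array 3 was high for Igkv6-20 (0.980) and low for Pcna (0.834). Array 4 was high for G530011O06Rik (0.988), Ccl20 (0.862) and the cardiac gene Actc1 (0.888). The causes were not tested.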

How the results depend on the processing

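No paired analysis was possible because the values describe 1 group and come from no test. The number of variable genes, 416, was 256 with a pseudocount of 64 and 70 with a 2-fold limit, and between 314 and 556 under the other planned settings that kept all 4 arrays. Of the variable genes, 44 also varied within CD9KO with a pseudocount of 64, in place of 75. Leaving out each wild type array in turn, with the filter and probe sets chosen again, gave 54 to 392 variable genes and a median SD of 0.0566 to 0.0896. It also gave 40 to 202 genes that varied within CD151KO too (51.5% to 74.1%), and 26 to 67 within CD9KO (17.1% to 48.1%). In these ranges the lowest counts and SD and the highest percentages were those without array 1. The ranges were 71.2% to 71.4% for genes above the filter, 178.8 to 180.9 for the median signal, and 31.4% to 50.0% for variable genes that repeated on a second probe set. Averaging all probe sets of a gene moved the level of 79 of 188 genes by more than their SD, and quantile normalization and centring moved 0. No detection calls or counts came with the values, so the limit of detection is unknown.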
